A study of Bombyx mori with 4 samples.

Results

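The regions described here are stretches of open chromatin that were found in both ATAC-seq libraries of the brain of the silkworm, Bombyx mori. They were chosen by the presence of called peaks. The peaks of the 4 deposited lists were merged wherever they overlapped by at least 1 bp, and a merged region was kept where a peak of the first brain library (brain 1) and a peak of the second (brain 2) both touched it, whatever the fat body lists held. This rule kept 4492 of 130309 merged regions, or 3.45%, a share that the rule itself fixes. All animals were wild-type larvae of strain P50, titled with the stage code L5D3, reared on mulberry leaves at 26 °C with 14 h of light and 10 h of dark. The 2 brain libraries are set beside 2 fat body libraries (fat body 1 and fat body 2), each made from 50000 nuclei tagmented with a pA-Tn5 transposome at 37 °C for 30 min. Whether a tissue's libraries were made from separate animals, or from pools, is not in the labels, so their differences may be technical.

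ATAC-seq marks DNA that a transposase can reach, which in most animals includes active promoters and enhancers. Promoters of genes needed in every cell tend to be open in many tissues, while enhancers are more often open in few. The larval brain of an insect holds neurons, glia and neurosecretory cells, whose peptide hormones, prothoracicotropic hormone among them, time the moults and metamorphosis. The fat body is the insect counterpart of liver and adipose tissue. The peak lists give positions and no genes, and no gene models of the same genome build were used here, so regions are given by position, and the tissue labels were not checked against marker genes.

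The lists differed in length and strength before any region was chosen. Brain 1 held 36420 peaks over 18.2 Mb and brain 2 held 11572 peaks over 5.98 Mb, against 107057 peaks over 21.8 Mb in fat body 1 and 14752 peaks over 9.53 Mb in fat body 2. The read depth is not in the lists, but the fold and p of a summit together give its pile-up of reads and its local background. The lowest local background per list was 1.38 reads for brain 1 and 0.558 for brain 2, against 1.38 for fat body 1 and 0.534 for fat body 2. A different stage code (5L-4D) from that of the titles stands in the brain 1 peak names, so stage and library cannot be told apart wherever brain 1 enters. With 2 libraries per tissue an exact permutation test over libraries cannot give a two-sided p below 0.333, and regions are not replicates. All values below are therefore descriptions, and binomial intervals (exact, 95%) cover counting error only.

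The 4492 regions were strong in brain 1 and ordinary in brain 2. They held 4512 peaks of brain 1, or 12.4% of that list, and 4538 peaks of brain 2, or 39.2% of that list. The fold enrichment deposited by the authors for each summit had a median of 11.02 in the brain 1 peaks of these regions (quartiles 8.14 and 13.7), against 5.26 in the other brain 1 peaks (3.98 and 7.37). In brain 2 the order was the other way round, with a median of 4.88 in these regions (4.05 and 6.07), against 5.84 in the other brain 2 peaks (4.60 and 7.82). Because presence in both lists chose the regions, these differences are no test of anything.

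Ranking each whole list by −log10 q into 5 parts of equal size shows the same contrast. The strongest part of brain 1 supplied 3388 of the regions, or 75.4%, and the other parts supplied between 168 and 538 each. Of all brain 1 regions in that strongest part, 46.5% were also in brain 2, against 2.70% of those in the weakest part. In brain 2 the 5 parts supplied near-equal numbers, between 801 and 996, and the share also found in brain 1 was 34.6% in the strongest part and 36.9% in the weakest. Strength in brain 1 thus went with presence in brain 2, and strength in brain 2 did not go with presence in brain 1.

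**Figure D1:**
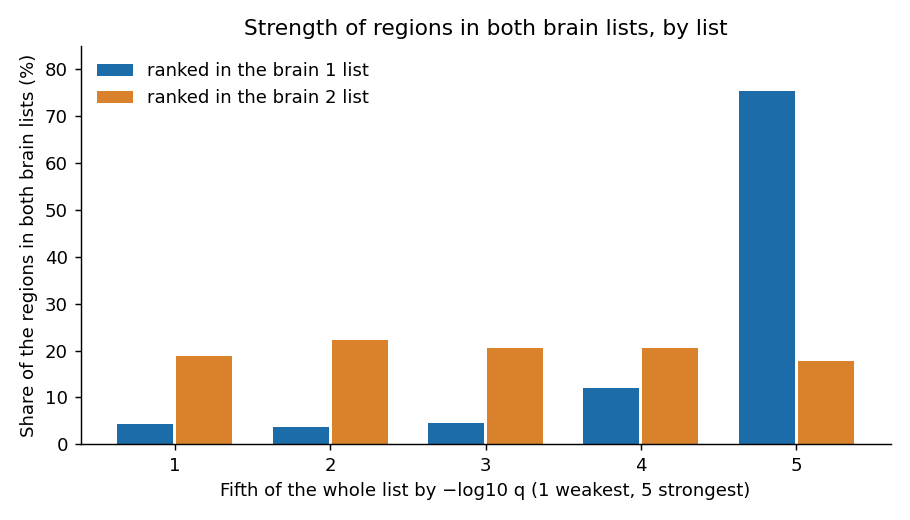
Share of the 4492 regions (y axis, %) that fell in each of 5 equal parts of the brain 1 list (blue) and of the brain 2 list (orange), ranked by −log10 q from weakest (1) to strongest (5). The brain 1 bars pile up in the strongest part, at 75.4%, while the brain 2 bars stay between 17.8% and 22.2%.

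The reads behind the peaks followed the same pattern. The median pile-up at the summit was 177 reads in the brain 1 peaks of these regions, against 53 reads in the other brain 1 peaks. For brain 1 this covers the 3780 of 4512 peaks with a −log10 p under 250, so the strongest are left out and the median is a low estimate. In brain 2 the median was 31 reads in these regions and 25 reads in the other peaks. Local background was higher at these regions in both libraries, with a median of 14.9 reads in brain 1 against 9.31 at its other peaks, and 5.63 reads in brain 2 against 3.51. In brain 2 the higher pile-up therefore came with a lower fold.

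The regions were spread over all 28 long sequences in step with their length. Sequences 1 to 28 (BHWX01000001.1 to BHWX01000028.1) carried 4476 of the regions, and the other 16 lay on 12 of the short unplaced sequences, of which 180 had a peak in any list. Length was taken up to the last peak of any list, 445 Mb in all, which gives 10.1 regions per Mb or 1 region per 99.3 kb. Sequence 4 had the most regions, 234, and the highest density, 12.5 per Mb. Sequence 26 had the fewest, 96, and sequence 1 had the lowest density, 8.19 per Mb, with 169 regions over 20.6 Mb. The densities thus differed by a factor of 1.53 at most.

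Other brain 2 regions were spread differently. Across the 28 sequences the Spearman correlation of the number of regions with sequence length was 0.82 for the regions in both brain lists, against 0.91 for the 31900 regions of brain 1 without brain 2 and -0.32 for the 7025 regions of brain 2 without brain 1. The points of these correlations share their libraries, and no p is given. The density of regions in both lists did not follow length (-0.02), whereas that of brain 2 without brain 1 ran from 8.09 per Mb on sequence 1 to 31.0 per Mb on sequence 2, the shortest. The share of brain 2 regions that were also in brain 1 therefore varied widely, from 25.2% on sequence 28 to 55.1% on sequence 10. As a share of brain 1 regions it varied less, from 10.1% on sequence 13 to 16.9% on sequence 2.

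**Figure D2:**
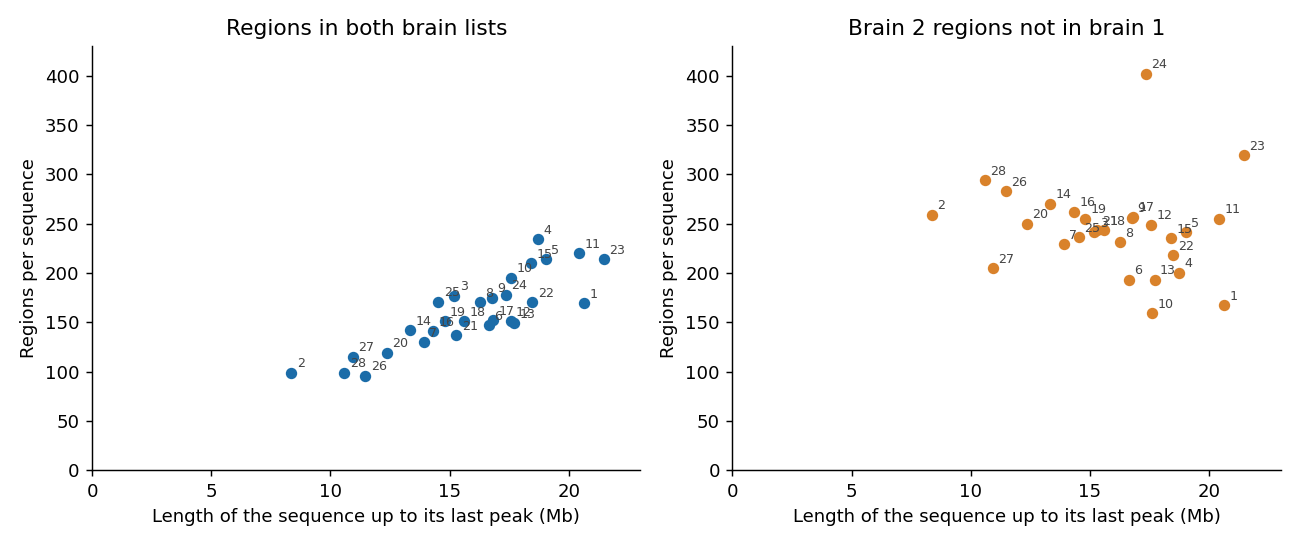
Number of regions on each of sequences 1 to 28 (y axis) against the length of the sequence up to its last peak (x axis, Mb), for the regions in both brain lists (left, blue) and for brain 2 regions absent from brain 1 (right, orange); numbers beside the points name the sequences. The counts in both lists climb with length between 96 and 234, while the brain 2 counts on the right, between 159 and 402, do not.

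Along the sequences the regions in both brain lists lay slightly towards the middle. With each sequence cut into 10 parts of equal length, the 4 middle parts held 43.4% of them and the 4 outer parts, 2 at each end, held 37.8%. For brain 1 without brain 2 these shares were 40.8% in the middle and 39.1% in the outer parts. For brain 2 without brain 1 the order was reversed, with 31.4% in the middle and 47.3% in the outer parts. No single part held fewer than 9.004% or more than 11.8% of the regions in both lists, counted over the 28 sequences together.

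At the scale of 1 Mb the regions were uneven. Over 430 whole bins of 1 Mb, a bin held a median of 9.5 regions (quartiles 7 and 13), and none was empty. The variance over the mean of these counts was 2.08, against 2.03 for brain 1 without brain 2 and 3.48 for brain 2 without brain 1. The fullest bin lay on sequence 11 between 11000001 and 12000000 and held 29 regions in both brain lists, 63 of brain 1 without brain 2 and 7 of brain 2 without brain 1. Bins with 24 regions followed on sequence 3 (1 to 1000000) and sequence 17 (7000001 to 8000000).

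Neighbouring regions were far apart compared with their own width. The distance from a region to the nearest other one, edge to edge, had a median of 26.0 kb, with quartiles of 10.2 and 56.6 kb, over the 4483 regions that shared a sequence with another. The closest pair lay 86 bp apart and the most isolated region 658 kb from its nearest neighbour. A neighbour within 1000 bp was found for 98 regions, or 2.19%, and within 50000 bp for 3202, or 71.4%. By sequence the median ran from 18930 bp on sequence 25 to 41129 bp on sequence 1, the sequence with the lowest density.

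**Figure D3:**
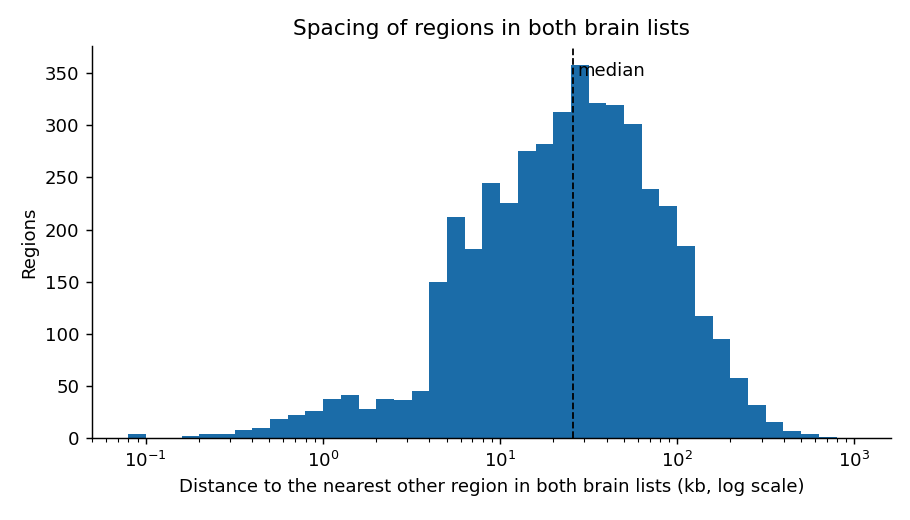
Distance from each of 4483 regions in both brain lists to the nearest other such region, edge to edge (x axis, kb, log scale; y axis, number of regions per bin). The dashed line marks the median of 26.0 kb; the bars are low below about 4 kb and step up there.

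The distances had a step near 5 kb. Counted between brain 1 summits of neighbouring regions in both lists, 31 pairs were 3 to 4 kb apart and 29 were 4 to 5 kb apart, but 85 were 5 to 6 kb apart. Counted between brain 2 summits these numbers were 32, 31 and 78. The whole lists had the step too, with 1488 pairs at 4 to 5 kb and 2693 at 5 to 6 kb among all brain 1 peaks, and 210 and 298 among all brain 2 peaks, against 8649 and 9806 in fat body 1 and 417 and 505 in fat body 2. In brain 1 the local background also changed at 5 kb. By distance to the nearest other brain 1 summit, its median at these regions was 17.9, 18.7 and 17.5 reads in the bins of 1 kb between 2 and 5 kb, and 12.4, 13.5 and 13.4 reads in those between 5 and 8 kb. The median fold in brain 1 was 10.1 at 4 to 5 kb and 12.5 at 5 to 6 kb. In brain 2 the background declined with no such break at 5 kb, with medians of 6.63, 7.38, 6.07, 5.70, 5.70 and 5.34 reads over the same 6 bins. The median fold in brain 2 was 4.54 at 4 to 5 kb and 5.12 at 5 to 6 kb. The part of the local background in the step was not tested.

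Few regions formed groups. Joining neighbours that lay within 5 kb of each other gave 214 pairs, 11 groups of 3 and 2 groups of 4, which together held 469 regions, or 10.4%. One group of 4 spanned 9.545 kb on sequence 9 (BHWX01000009.1, 11981289 to 11990833), and 1 of its regions was also open in fat body. The other group of 4 spanned 7.726 kb on sequence 14 (BHWX01000014.1, 9577674 to 9585399), with 3 regions open in fat body. The first by position of the groups of 3 spanned 7.207 kb on sequence 3 (BHWX01000003.1, 740565 to 747771). Grouped regions were narrower, with a median of 700 bp against 812 bp for those outside groups, and had a median fold of 8.65 against 11.3 in brain 1 and of 4.44 against 4.95 in brain 2.

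The longest stretches without such a region were not without open chromatin. The longest, 1036 kb on sequence 8 (BHWX01000008.1, 284439 to 1320878), held 54 regions of brain 1 and 21 of brain 2, none shared, beside 243 of fat body 1 and 30 of fat body 2. The next, 976 kb on sequence 25 (BHWX01000025.1, 11851460 to 12827931), held 79 regions of brain 1 and 24 of brain 2, beside 253 of fat body 1 and 33 of fat body 2. After it came 940.1 kb on sequence 22 (BHWX01000022.1, 11080995 to 12021132), with 45 of brain 1 and 10 of brain 2, beside 183 of fat body 1 and 18 of fat body 2. In these stretches each brain library had peaks, at different places. Only 92 of 4448 distances between neighbours on the long sequences exceeded 500 kb.

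Merged regions in both lists were wide, and brain 1 mostly set their width. They had a median width of 800.5 bp (quartiles 615 and 1034 bp), with a range of 258 to 3336 bp, against 423 bp for brain 1 without brain 2 and 646 bp for brain 2 without brain 1. Each joins peaks of both brain lists, so this difference is partly built in. Brain 1 peaks in these regions had a median width of 719 bp, against 395 bp for its other peaks. Brain 2 peaks in them were narrower than its other peaks, at 387 bp against 564 bp. The median brain 1 part of a region was 725.5 bp wide and the median brain 2 part 390 bp, and the brain 1 part was the wider one in 4005 regions, or 89.2%. In 3446 of the 4427 regions with 1 peak of each brain list, or 77.8%, the brain 2 peak lay wholly inside the brain 1 peak, and the reverse was seen in 147. Brain peaks covered 96.3% of the merged width, so fat body peaks added 3.68%.

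The bases open in both brain libraries numbered 1.76 Mb. They made up 87.5% of the brain 2 peak width in these regions, 50.6% of the brain 1 peak width and 45.5% of the merged width. A region shared a median of 351 bp between its brain peaks (quartiles 268 and 482 bp). The sequences hardly differed in width, with medians from 708 bp on sequence 28 to 848 bp on sequence 5.

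The rule was met narrowly by few regions. In 58 regions, or 1.29%, the brain peaks shared no base and were joined through fat body peaks. These regions were thus open in fat body by construction. In another 103 regions, or 2.29%, they shared up to 100 bp. The narrowest case, with 1 bp shared, lay on sequence 5 (BHWX01000005.1, 428041 to 428901), where the fold was 18.3 in brain 1 and 5.64 in brain 2 and the summits lay 516 bp apart. On sequence 11 (BHWX01000011.1, 1741279 to 1742214) and sequence 15 (BHWX01000015.1, 11965260 to 11966276) the brain peaks also shared 1 bp, with summits 325 and 448 bp apart. Just outside the rule, 67 pairs of brain 1 and brain 2 peaks lay within 100 bp of each other without being joined. The closest, 6 bp apart on sequence 23 (brain 1 from 17084686 to 17085271, brain 2 from 17083946 to 17084679), had a fold of 5.63 in brain 1 and 7.10 in brain 2. The next pairs were 11 bp apart on sequence 5 and 12 bp apart on sequence 2.

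Summits of the brain libraries lay close together. Where a region held more than 1 peak of a list, the closest summits were taken. The distance had a median of 73 bp (quartiles 30 and 153 bp), and it was at most 100 bp in 2777 regions, or 61.8%, and at most 10 bp in 730, or 16.3%. The position was identical in 172 regions. At the other end, 210 regions had summits more than 500 bp apart, up to 2068 bp. Neither library was shifted against the other. With the strongest peak of each list taken instead, the brain 2 summit lay further along the sequence in 2205 regions and less far along in 2116. The overlap that the rule demands limits how far apart summits can lie, so this closeness is partly built in.

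Stronger regions had closer summits. With the regions ranked by brain 1 into 5 parts, the median summit distance was 170 bp in the weakest part (median fold 5.93) and 83, 66, 58 and 53 bp in the following ones (median fold 13.9 in the strongest). Ranked by brain 2, it was 119 bp in the weakest part and between 63 and 72 bp in the other 4. For the strongest peak of each list, the brain 1 summit lay inside the brain 2 peak in 85.8% of regions. The brain 2 summit lay inside the brain 1 peak in 92.3%. Within the peaks the summits sat near the centre, at a median of 49.4% of the width in brain 1 and 48.7% in brain 2.

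Most regions open in both brain libraries were also open in fat body. A fat body peak touched 3838 of the 4492 regions, or 85.4% (84.4 to 86.5), while the share among all 43417 regions with a brain peak was 60.2%. It was 49.2% among regions of brain 1 without brain 2. Among regions of brain 2 without brain 1 it was 94.3%, higher than among the regions in both brain lists. Fat body 1 had a peak in 3655 of the regions in both brain lists, or 81.4% (80.2 to 82.5), beside 48.7% of all regions with a brain peak. Fat body 2 had a peak in 1258, or 28.01% (26.7 to 29.3), beside 19.8%. Both fat body lists were present in 1075 regions, or 23.9%, and fat body 1 alone in 2580, or 57.4%. Fat body 2 alone was present in 183, or 4.07%, and neither in 654, or 14.6%. In the same order, the shares were 2.29%, 46.4%, 0.451% and 50.8% of brain 1 without brain 2. Among brain 2 without brain 1 they were 25.1%, 2.62%, 66.6% and 5.67%. These shares depend on list length, and those of all regions with a brain peak are of the full lists. No such share was counted for lists of equal length, so the excess over it is given for the full lists alone. With the 11572 best peaks of each list, 55.8% of the 3791 regions in both brain lists were open in a fat body list. In these shorter lists that share was 29.5% of the 7781 regions of brain 1 without brain 2. It was 77.3% of the 7729 regions of brain 2 without brain 1, so the regions in both lists lay between. They were open in fat body 1 in 53.4% and in fat body 2 in 20.9%. With full lists but without fat body 1, the share of the regions in both brain lists open in fat body was 27.6%.

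The regions of a single brain list were found more often in the fat body list with their own number. Regions of brain 1 without brain 2 were found in fat body 1 in 48.7% (48.2 to 49.3) and in fat body 2 in 2.75% (2.57 to 2.93) of cases. Regions of brain 2 without brain 1 were found in fat body 1 in 27.8% (26.7 to 28.8) and in fat body 2 in 91.7% (91.0 to 92.3). For fat body 1 the regions in both brain lists thus had the highest share of the 3 kinds, and for fat body 2 they lay between the others. With lists of equal length that order was the same, with 53.4%, 29.2% and 1.81% for fat body 1 and 20.9%, 4.13% and 76.7% for fat body 2 (both brain lists, brain 1 without brain 2 and brain 2 without brain 1). No test over libraries could be made of these differences.

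Because the regions in both brain lists were wider at brain 1 peaks, the shares were also counted at the brain summit alone. The brain 1 summit lay inside a fat body 1 peak in 71.2% (69.9 to 72.6) of the regions in both brain lists, against 37.8% (37.3 to 38.3) of brain 1 without brain 2. For the brain 2 summit the shares were 58.9% (57.4 to 60.3), against 9.95% (9.26 to 10.7) of brain 2 without brain 1. In fat body 2 the shares for the brain 2 summit were 25.5% (24.3 to 26.8), against 90.8% (90.1 to 91.5).

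The shares also differed within each part of a brain list ranked by strength. In the strongest of 5 parts of brain 1, 86.4% (85.2 to 87.5) of the regions also in brain 2 were open in fat body 1, against 74.0% (72.6 to 75.4) of the others. In the weakest part the shares were 70.4% (63.5 to 76.7) of the regions also in brain 2, against 44.4% (43.3 to 45.6) of the others. Between these parts the share of the regions in both lists took no steady direction, at 78.6%, 60.9% and 62.3%. In fat body 2 the regions in both lists were open in 73.0% (66.2 to 79.0) of the weakest part and in 23.7% (22.2 to 25.1) of the strongest, against 2.05% (1.73 to 2.41) and 5.67% (4.97 to 6.44) of the other brain 1 regions. Ranked by brain 2 instead, the share in fat body 2 was 12.8% (10.6 to 15.2) in the weakest part and 55.3% (51.8 to 58.8) in the strongest. The other brain 2 regions were at 73.9% (71.6 to 76.2) in the weakest part, and 1512 of 1513 of them in the strongest part were also in fat body 2.

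**Figure D4:**
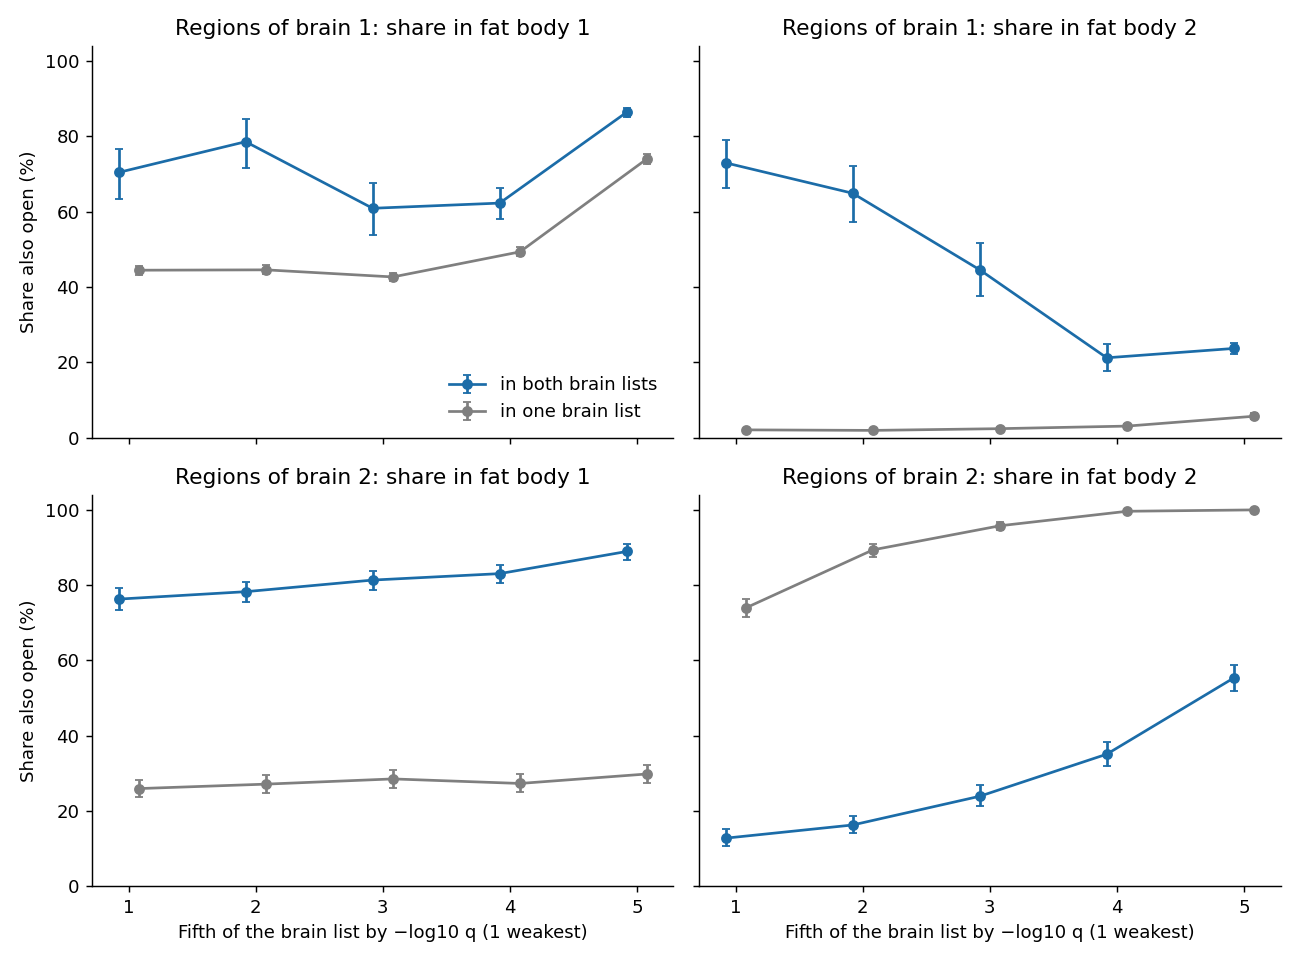
Share of brain regions also open in fat body 1 (left) and fat body 2 (right), in % with exact 95% binomial intervals, by 5 equal parts of the brain 1 list (top) and the brain 2 list (bottom) ranked by −log10 q from weakest to strongest. Blue points are regions in both brain lists and grey points regions in the ranked brain list only; blue lies above grey in the first 3 panels and below it for brain 2 with fat body 2, where grey reaches 99.9%.

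Fat body peaks at these regions had a higher median fold than the other peaks of their lists. The 4634 fat body 1 peaks inside the regions had a median fold of 6.75 (quartiles 4.51 and 11.5), against 3.96 (3.33 and 5.08) for the other fat body 1 peaks. The 1270 fat body 2 peaks inside them had a median fold of 9.84 (7.38 and 13.3), against 8.43 (6.11 and 12.1) for the other fat body 2 peaks. Their percentile of −log10 q within the list had a median of 88.7 in fat body 1 and 65.6 in fat body 2, lists whose percentiles are not compared. The fat body 1 peaks were also wider than the other peaks of that list, at a median of 242 bp against 164 bp, whereas those of fat body 2 were narrower, at 377.5 bp against 661 bp.

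The 4 classes of fat body presence differed in strength, width and summits. Regions in neither fat body list were the narrowest, with a median of 670 bp, and had a median fold of 9.59 in brain 1 and 4.42 in brain 2. Regions with fat body 1 alone had medians of 784 bp, a fold of 11.7 in brain 1 and of 4.69 in brain 2, with a median fold of 6.96 in fat body 1. Regions with both fat body lists had medians of 902 bp, a fold of 10.97 in brain 1 and of 5.73 in brain 2. Their median fold was 13.2 in fat body 1, against 9.95 in fat body 2. Fat body 1 enrichment was thus higher at regions that fat body 2 shared than at regions it lacked. Of the regions with both, 96 were 1500 bp wide or more, or 8.93%, against 9 of the regions with neither, or 1.38%. A wide region is touched by a fat body peak more easily, and a joined peak can widen it. The differences in width between the classes are therefore partly built in.

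The 183 regions with fat body 2 alone stood apart. Their brain 1 peaks were weak, with a median fold of 5.26 and a median percentile of 48.6 in that list, where the other classes had medians from 86.2 to 95.5. Their brain summits lay a median of 300 bp apart, against 66 to 80 bp in the other classes, and within 100 bp in 22.4% of regions. In them the brain 2 summit lay a median of 87 bp from the fat body 2 summit, and the brain 1 summit 350 bp from it. The brain 2 summit was within 100 bp of the fat body 2 summit in 52.5% of these regions, and the brain 1 summit in 16.9%. In most of them the brain 1 summit thus lay more than 100 bp from that of fat body 2.

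**Figure D5:**
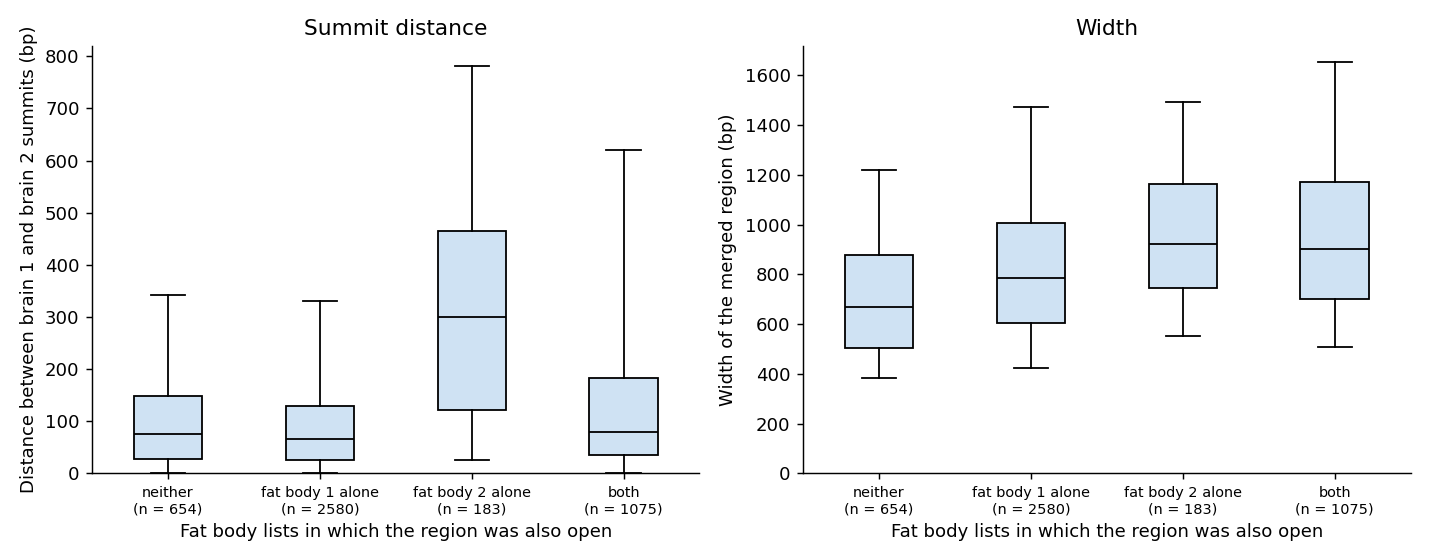
Distance between the brain 1 and brain 2 summits (left, bp) and width of the merged region (right, bp) for regions in both brain lists, by the fat body lists in which they were also open. Boxes show the quartiles and the median and whiskers the 5th and 95th percentiles; regions with fat body 2 alone have the largest median summit distance, about 300 bp, against 66 to 80 bp elsewhere.

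In both classes of the 3655 regions shared with fat body 1, the brain 1 summit had a shorter median distance to fat body 1 than to brain 2. Which summit was closer was not counted region by region. Closest summits were taken, and these regions held 4634 fat body 1 peaks, up to 4 in a region. Brain 2 had 4538 peaks in all 4492 regions, so a short distance was easier to reach for fat body 1. Where fat body 1 alone was present, the median distance of brain 1 was 66 bp from brain 2 and 32 bp from fat body 1. Where both fat body lists were present, it was 80 bp from brain 2 and 38 bp from fat body 1. Over both classes the distance of brain 1 from fat body 1 had a median of 34 bp, with 77.8% within 100 bp. From brain 2 to fat body 1 it was 86 bp over the same regions, with 56.7% within 100 bp. Over the 1258 regions shared with fat body 2 the median was 75 bp both from brain 1 and from brain 2. In the 1075 regions open in all 4 lists, the strongest summits of the 4 libraries spanned a median of 150 bp, and in 374 of them, or 34.8%, all 4 lay within 100 bp.

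The share open in fat body was similar on most sequences. It ran from 71.7% of 99 regions on sequence 28 (61.8 to 80.3) to 90.6% of 170 regions on sequence 8 (85.2 to 94.5), with a median of 85.4% over the 28 sequences. Sequence 1 had the second lowest share, 77.5% (70.5 to 83.6). Regions in groups of neighbours within 5 kb were open in fat body in 80.8% (76.9 to 84.3), against 86.0% (84.9 to 87.0) of those outside such groups.

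The 5 regions that ranked best over both brain lists, by mean percentile of −log10 q, were all open in fat body 1. So were 97.0% of the regions in the strongest of 5 parts ranked by brain 1, and 88.7% in that ranked by brain 2. The best of the 5 regions lay on the unplaced sequence 216 (BHWX01000216.1, 15469 to 16125). It had a fold of 43.3 in brain 1 and 29.7 in brain 2, against 69.1 in fat body 1 and no peak in fat body 2. Its 3 summits lay within 5 bp, at 15783 for brain 1 and 15779 for brain 2, with fat body 1 at 15778. It had the highest fold of any brain 1 peak and of any fat body 1 peak, and no other region in both brain lists lay on its sequence.

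The next 2 were open in all 4 libraries. On sequence 16 (BHWX01000016.1, 12218002 to 12219579) the fold was 12.6 in brain 1 and 12.1 in brain 2, while fat body 1 had 15.5 and fat body 2 had 8.83, with brain summits 92 bp apart and 137 reads of pile-up in brain 2. On sequence 14 (BHWX01000014.1, 4979244 to 4981197) it was 10.7 in brain 1 and 9.83 in brain 2, against 22.9 in fat body 1 and 21.6 in fat body 2. That region held 2 summit positions, with brain 1 at 4979809 and fat body 1 at 4979875, and brain 2 at 4980601 and fat body 2 at 4980619. The summits there paired by library number and not by tissue, 792 bp apart between the brain libraries.

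The last 2 of the 5 had a weaker peak in fat body 1 and none in fat body 2. On sequence 18 (BHWX01000018.1, 8738129 to 8739195) the fold was 14.1 in brain 1 and 11.9 in brain 2, against 8.07 in fat body 1. On sequence 21 (BHWX01000021.1, 10438510 to 10439295) it was 14.7 in brain 1 and 12.9 in brain 2, against 5.52 in fat body 1. On sequence 21 the brain summits fell 2 bp apart, at 10439002 and 10439004, and the fat body 1 summit lay at 10439121.

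The best regions of each fat body class show the range of patterns. Among regions in neither fat body list the best lay on sequence 25 (BHWX01000025.1, 10205459 to 10206064), with both brain summits at 10205758, followed by regions on sequence 15 (BHWX01000015.1, 1064433 to 1064969) and sequence 6 (BHWX01000006.1, 6249424 to 6249973) with summits 95 and 68 bp apart. Among regions with both fat body lists, the best after those on sequences 16 and 14 lay on sequence 7 (BHWX01000007.1, 2552126 to 2553053), with a fold of 12.4 in brain 1 and 10.9 in brain 2, against 17.9 in fat body 1 and 11.1 in fat body 2. Here the summits paired by tissue, with both brain libraries at 2552632 and both fat body libraries at 2552436.

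Among regions with fat body 2 alone the best was on sequence 18 (BHWX01000018.1, 2921588 to 2923385). Its fold was 12.2 in brain 1 and 9.65 in brain 2, against 31.6 in fat body 2, and the brain 2 and fat body 2 summits coincided at 2922751, 765 bp from the brain 1 summit at 2921986. The second, on sequence 2 (BHWX01000002.1, 7334596 to 7335345), had a fold of 9.73 in brain 1 and 6.27 in brain 2, against 10.9 in fat body 2. Its brain summits lay 103 bp apart, at 7334920 for brain 1 and 7334817 for brain 2, with fat body 2 at 7335170. Here the brain 1 summit was the nearer one to that of fat body 2. The third, on sequence 23 (BHWX01000023.1, 7700476 to 7701787), had brain summits 601 bp apart, with the brain 2 summit 5 bp from that of fat body 2.

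The widest regions were made up in different ways. The widest, 3336 bp on the unplaced sequence 96 (BHWX01000096.1, 16926 to 20261), had the largest summit distance of all, 2068 bp, with a fold of 15.8 in brain 1 and 8.03 in brain 2, against 22.7 in fat body 1. The next, 2852 bp on sequence 5 (BHWX01000005.1, 8980918 to 8983769), held 1 peak of brain 1 and 2 of brain 2, beside 2 of fat body 1, with summits 120 bp apart. The third, 2787 bp on sequence 2 (BHWX01000002.1, 980143 to 982929), held 1 peak each of brain 1, brain 2 and fat body 2 and 4 of fat body 1. The brain 1 peak alone was 2676 bp wide. The strongest summits of the 4 libraries in this region lay between 981716 and 981794, in spite of its width.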

How the data were processed

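The authors deposited 1 peak list per library. The submitters' processing notes name MACS2 2.1.0, deepTools 3.3.0, Picard, Bowtie2 and Trim Galore; the sources used here give neither their roles and settings nor the genome build. Per the labels, each library is 1 sample. Each deposited peak has a fold enrichment at the summit, a −log10 p and a −log10 q (lowest −log10 p 5.01 for brain 1 and 5.03 for brain 2, against 5.01 for fat body 1 and 6.69 for fat body 2, where names cite a q cutoff). The deposited score, which follows −log10 q in fat body 2 and −log10 p elsewhere, was not used.

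Lists were merged with pandas 2.3.3 and NumPy 2.4.6 (Python 3.11.15); intervals are Clopper-Pearson (SciPy 1.17.1). Pile-up and background were solved from fold, (pile-up + 1) / (background + 1), and Poisson p, trying whole pile-ups from 2 to 1000 where −log10 p was under 250; exactly 1 met both within a relative 2e-05 for every searched peak. The code was tested on simulated data. Coordinates are 1-based. No test was made. The regions, comparisons and alternatives were chosen with earlier results of these data known. Regions named were the 5 best by mean percentile of −log10 q over the brain lists, the 3 best per fat body class, the 3 widest, the 3 longest gaps, the 3 largest groups and the 3 cases nearest the rule on either side. The step near 5 kb and the comparisons at matched strength were chosen after the data were seen.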

Additional observations from a re-analysis of the deposited data

How the results depend on the processing

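The count of 4492 regions stayed within 1.5 times under every setting that kept both brain lists, from 3751 with windows of 100 bp on either side of the summits to 4465 without fat body 1. With an overlap of 50% of the shorter peak the share open in fat body was 84.2% and the median summit distance 69 bp. With the 11572 best peaks of each list they were 55.8% and 65 bp, and the nearest region lay a median of 29.0 kb away. With summit windows they were 79.4% and 59 bp, with 29.6 kb. When every list was limited to −log10 q of 5 or more, the nearest region lay 27.2 kb away. Counting only regions whose brain 1 summit lay inside a fat body peak, an alternative added after seeing the data, gave 74.3%; requiring over 100 bp shared by the brain peaks, also added then, gave 4331 regions. For these the cause was not tested. Leaving out 1 library at a time moved the count between 4462 and 36396, the share between 27.6% and 89.8%, and the nearest distance between 5.255 and 26.0255 kb. Without brain 1 or brain 2 the rule needs only 1 list, so by construction the count is that list's (11560 and 36396) and no summit distance exists; without either fat body list that distance was 72 bp. The median width ran from 284 bp with summit windows to 805 bp. No paired analysis was possible because no result comes from a test. Absence from a list means that no peak was called there, which a shallow library cannot tell from closed chromatin.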

Other observations

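The fold of each brain library correlated more with that of the fat body library of its own number than with that of the other brain library. In the 1075 regions open in all 4 libraries, Spearman's correlation of fold was 0.18 between brain 1 and brain 2, while it was 0.64 between brain 1 and fat body 1 and 0.35 between brain 2 and fat body 2. Between brain 1 and fat body 2 it was 0.036 and between brain 2 and fat body 1 it was 0.015, against 0.34 between fat body 1 and fat body 2. For fat body 2 the correlations with brain 2 and with fat body 1 were thus nearly equal. Over all 4492 regions the brain libraries had a correlation of 0.27. These are correlations across regions, which share libraries and are not independent replicates.

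The 16 regions on unplaced sequences included both the widest region and the one with the highest fold in brain 1. They were also open in fat body 1 alone in 9 cases, in both fat body lists in 4 and in neither in 3. Sequences 35, 38 and 43 held more than 1 of them.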
